A study of Mus musculus with 23 samples.

Results

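The horns described here are 23 uterine horns of female C57BL/6 mice, divided by their own level of Aldh1a1 (ENSMUSG00000053279), the gene of an aldehyde dehydrogenase that makes retinoic acid. Counts were scaled to CPM, the count of a gene divided by its library's total and multiplied by 1000000. A horn under 50 CPM of Aldh1a1 was put in the low set, which held 8 horns, and a horn at 50 CPM or more in the high set, which held 15. The sets were defined by a measured value and are not groups of the study. RNA of each library came from endometrium pressed out of 1 horn. The horns belonged to 4 treatment groups: 6 SHAM, 5 PBS, 6 HG and 6 HG+ORG. In the PBS, HG and HG+ORG groups the uterus was injured with 70° ethanol as a model of Asherman syndrome and endometrial atrophy, and 4 days later the horn received saline (PBS), hydrogel (HG) or hydrogel with human endometrial organoids (HG+ORG). Tissue was taken 2 weeks after that injection. The sources used here do not give what SHAM horns received, the age of the mice or the stage of the estrous cycle. Labels name 21 mice for this time point but do not tie the 23 horns to them, so some horns share a mouse, and p-values taken over horns may be too small.

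Retinoic acid is a signalling molecule made from vitamin A. Retinol enters cells through the receptor encoded by Stra6, is oxidised to retinaldehyde, and is turned into retinoic acid by the ALDH1A enzymes, after which nuclear retinoic acid receptors act on transcription and CYP26 enzymes clear it. In the uterus the ALDH1A enzymes are spread over different cell types, and the epithelium, glands and stroma are remodelled by estrogen and progesterone over each cycle. Wnt signalling, which works through beta-catenin and the TCF and LEF factors, takes part in gland formation and is limited by secreted antagonists such as NOTUM and WIF1.

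Promoter windows are shown for the gene that divided the horns and for genes of the retinoid and Wnt pathways that differed most between the sets. Each window is the 250 bases before a RefSeq transcription start, on build GRCm38.p6, read 5′ to 3′. The build of the deposited counts is GRCm39, so these coordinates apply to the sequence table and to no deposited value.
Aldh1a1, chr19:20601718-20601967, plus strand: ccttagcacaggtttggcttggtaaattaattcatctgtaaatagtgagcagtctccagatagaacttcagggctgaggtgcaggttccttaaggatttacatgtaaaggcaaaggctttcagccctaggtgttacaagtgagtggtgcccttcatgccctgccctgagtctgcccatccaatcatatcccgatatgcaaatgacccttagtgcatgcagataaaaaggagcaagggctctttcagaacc
Stra6, chr9:58128838-58129087, plus strand: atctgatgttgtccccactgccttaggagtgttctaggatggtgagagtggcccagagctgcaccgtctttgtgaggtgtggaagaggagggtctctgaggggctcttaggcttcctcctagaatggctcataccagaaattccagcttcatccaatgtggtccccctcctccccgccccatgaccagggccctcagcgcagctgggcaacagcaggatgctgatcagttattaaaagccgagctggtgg
Wif1, chr10:121033754-121034003, plus strand: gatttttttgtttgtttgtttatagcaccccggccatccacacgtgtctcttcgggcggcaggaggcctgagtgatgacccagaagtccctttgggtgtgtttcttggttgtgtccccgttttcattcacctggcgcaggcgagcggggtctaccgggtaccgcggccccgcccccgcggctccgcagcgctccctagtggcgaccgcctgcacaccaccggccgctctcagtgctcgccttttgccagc
Neither ATCAAAG nor TTCAAAG, forms of the core bound by TCF and LEF factors, was found on either strand of the windows printed. Among 11799 tested genes with a window, 6.60% held a match in at least 1 window. The share was 7.33% of 1228 genes called higher in the high horns and 6.10% of 1541 called lower. Over all 32851 windows of the table it was 7.48%.

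Aldh1a1 was 5.30 CPM in SHAM 3, 11.9 in SHAM 4, 28.9 in PBS 10, 31.2 in HG 13, 11.5 in HG 14, 21.4 in HG 16, 14.0 in HG+ORG 18 and 12.3 in HG+ORG 21. The 15 high horns ran from 98.4 CPM in HG+ORG 19 through a median of 248 to 508 in HG+ORG 20. The horns nearest the dividing level were therefore HG 13 at 31.2 CPM below it and HG+ORG 19 at 98.4 CPM above it. Low and high horns occurred in every treatment group, with 2 low of 6 SHAM horns, 1 of 5 PBS horns, 3 of 6 HG horns and 2 of 6 HG+ORG horns. Within the SHAM group the higher of the low horns was at 11.9 CPM and the lowest high horn at 220. Aldh1a7 (ENSMUSG00000024747), a close copy of Aldh1a1, may share reads with it. Its median was 1.18 CPM in the low and 13.1 in the high horns, and neither gene was tested.

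**Figure D1:**
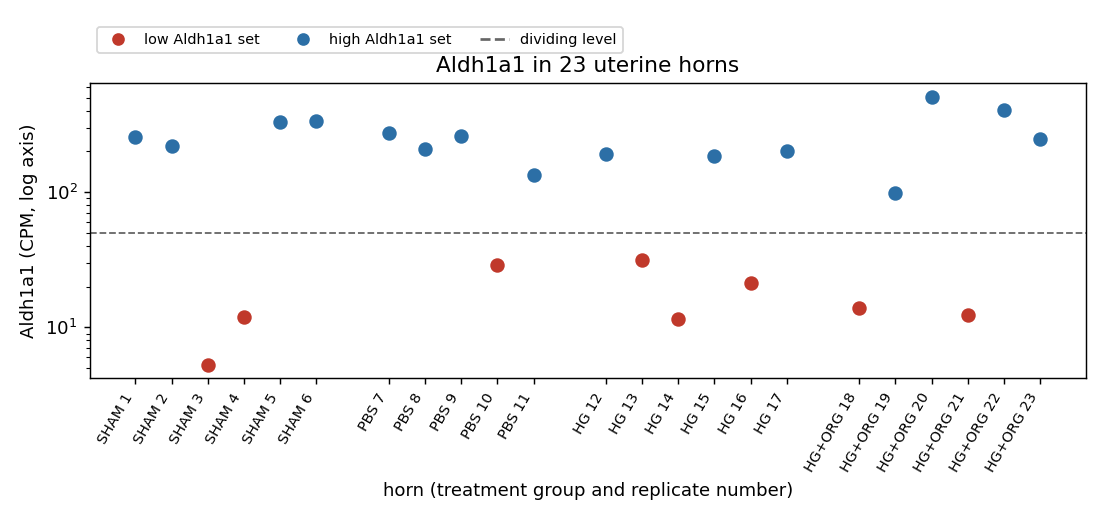
Aldh1a1 level in each of the 23 horns, in CPM on a log axis, with horns ordered by treatment group and replicate number. Each point is 1 horn, red for the low and blue for the high set, and the dashed line is the dividing level of 50 CPM; the low horns reach 31.2 CPM and the high horns begin at 98.4.

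Library totals ran from 7920918 to 14902952 counts. Mitochondrially encoded transcripts took 1.497% to 11.4% of counts. The mean log2 CPM of the list of uterine epithelial markers was 4.97 in HG+ORG 18, against 7.79 to 8.58 in the high horns, so the defining epithelial markers of endometrium were low in that library. HG+ORG 18 also had the highest level of the macrophage and monocyte list, with a mean log2 CPM of 7.67, and it held 10659.6 CPM of the lysozyme gene Lyz2. SHAM 5 and SHAM 6 were the most alike pair of horns within a group, with a chi-square of 2.90 per degree of freedom over genes, against 17.9 for the next pair.

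Across all other genes the sets differed widely. With treatment group as a covariate, edgeR called 1674 of 18061 features higher in the high horns (9.27%) and 2363 lower (13.1%) at an adjusted p under 0.05, and the median log2 fold over all features was -0.07. Log2 folds below are high minus low horns from this fit, with their standard errors (SE). The p-values describe how each gene went with Aldh1a1 over the horns, not an effect of a treatment. Among the called features, 707 were more than 1 log2 unit higher and 906 more than 1 log2 unit lower. In edgeR's log2 CPM, scaled by TMM factors rather than by plain totals, the 2 sets did not overlap for 140 features higher in the high horns (0.775%). The same held for 32 lower (0.177%). Without HG+ORG 18, 1829 were called higher and 1879 lower, of which 1435 and 1583 were among the calls over all horns. Leaving out HG 14 gave 2615 higher and 2663 lower, and dividing the horns at 25 CPM, which puts PBS 10 and HG 13 among the high horns, gave 920 and 1099.

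Part of the Wnt pathway list was called higher in the high horns. Of 24 tested members, 7 were called higher (29.2%) and 1 lower (4.17%), against 9.27% and 13.1% of all features. The other 16 were not called. The list's median log2 fold was 0.45, with 15 folds above 0 and 9 below. Notum, a secreted enzyme that inactivates Wnt ligands, was 0.598 to 4.39 CPM in the low horns, with a median of 1.85, and 19.2 to 99.3 CPM in the high horns, with a median of 52.6. No low horn reached a high one, and the log2 fold was 4.299 (SE 0.35, edgeR adjusted p = 5.21e-07). A gene antisense to Notum may share its reads, since the sources used here do not give the strand setting of the counting.
Axin2, a feedback inhibitor and common readout of Wnt signalling, had 3.79, 20.2 and 52.8 CPM as lowest, median and highest low horns, and 63.4, 77.3 and 131 CPM in the high horns. These ranges did not overlap either, and the log2 fold was 2.18 (SE 0.33, edgeR adjusted p = 0.000183). The highest low horn was HG 14.
The ligand Wnt7a, made by uterine luminal epithelium, had medians of 71.3 and 337 CPM in low and high horns, with no overlap, and a log2 fold of 1.97 (SE 0.29, adjusted p = 0.000124). Receptors Fzd1 (log2 fold 1.14) and Fzd6 (1.04) were called higher, but Fzd6, at an adjusted p of 0.0482, lost its call at a dividing level of 25 or 100 CPM and in most fits with 1 horn left out. Lgr5, an R-spondin receptor that marks epithelial progenitors in several tissues, was called higher by 3.07 (SE 0.71) and Tcf7, a nuclear partner of beta-catenin, by 1.57 (SE 0.37). Lgr5 overlapped: it was 74.5 CPM in HG 14 and at most 19.4 in the other 7 low horns, against 34.3 to 111 CPM in the high ones. It was not called by DESeq2, at a dividing level of 25 CPM or in injured horns alone. Tcf7 overlapped too, at 49.0 CPM in PBS 10 and 37.1 in HG 14 against 28.1 to 85.3 CPM in the high horns. Its log2 fold within PBS was -0.09, and it was called neither in SHAM horns alone nor in injured horns alone. The member called lower was the antagonist Sfrp4 (log2 fold -2.18).

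Wif1, a secreted Wnt inhibitor that the list does not hold, had the greatest log2 fold among genes named by size. It was 0 CPM in 4 low horns, 2.19 CPM at most (PBS 10), and 4.21 to 66.4 CPM in the high horns with a median of 25.5. The sets did not overlap, and the fitted log2 fold was 5.84 (SE 0.77, adjusted p = 5.62e-05), a value that depends on the prior count since several low horns were at 0.

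**Figure D2:**
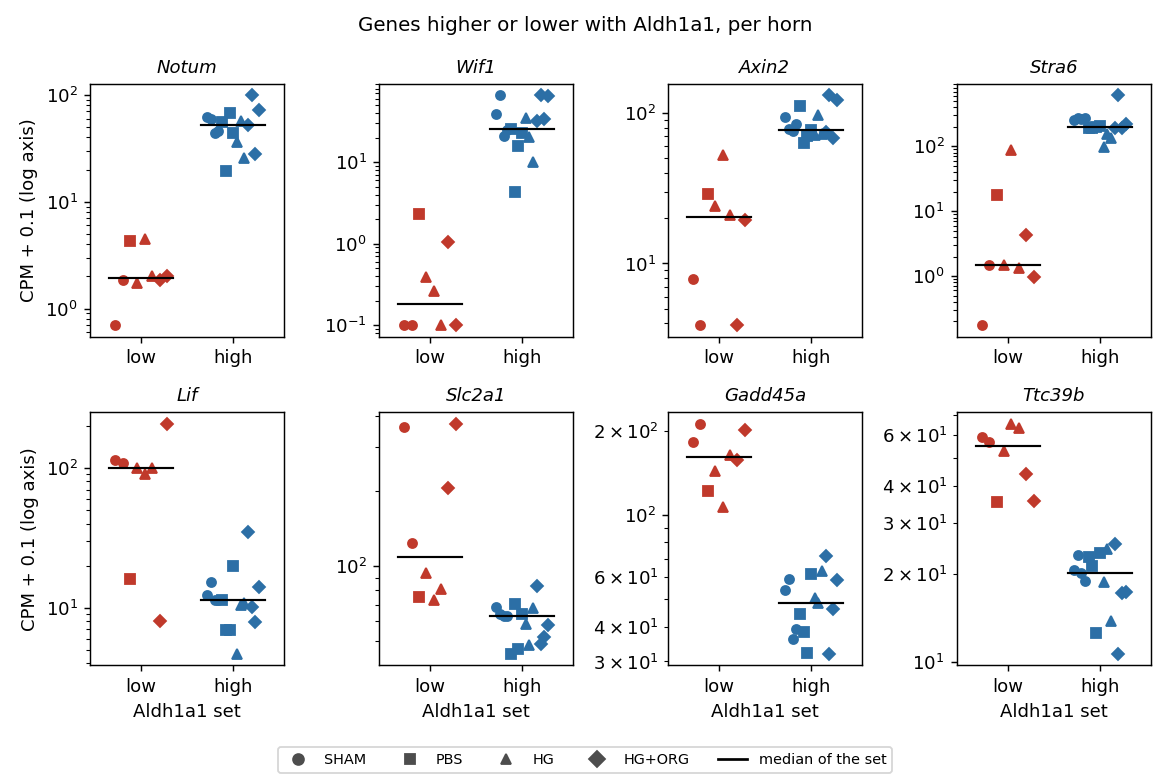
Levels of 8 genes in each horn, as CPM plus 0.1 on a log axis, with the low set at the left and the high set at the right of each panel. Colours mark the sets, symbols the treatment groups and black lines the medians; Notum, Wif1, Axin2 and Stra6 are higher in every high horn than in any low horn, Gadd45a and Ttc39b are lower in every high horn, and Lif and Slc2a1 overlap.

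Retinoid genes were called in opposite directions. Of 22 tested members of the retinoid handling list, 3 were called higher (13.6%) and 8 lower (36.4%), against 9.27% and 13.1% of all features. The list's median log2 fold was -0.29, and 2 members were called lower when the horns were divided at 25 CPM. Stra6, the retinol-uptake receptor, had 0.075, 1.38 and 88.9 CPM as lowest, median and highest low horns and 98.9, 200.2 and 616 CPM in the high horns. The sets did not overlap, although HG 14 came close, and the log2 fold was 4.57 (SE 0.99, edgeR adjusted p = 0.00293). Stra6 was not among the calls of DESeq2. Aldh1a3, a second retinaldehyde dehydrogenase known from uterine glands, had medians of 1.80 and 25.4 CPM, a log2 fold of 4.08 (SE 0.62, adjusted p = 0.000183), and 1 low horn within the range of the high ones.
Aldh1a2, the stromal member of the enzyme family, was not called: its median was 50.4 CPM in the low and 11.3 in the high horns (log2 fold -1.41, SE 0.63, adjusted p = 0.109), and in SHAM horns alone the fold was 0.31. Cyp26a1, which degrades retinoic acid, was not called either (log2 fold 1.31, SE 1.17, adjusted p = 0.431). It was 104 CPM in HG 14, 5.34 in PBS 10 and under 1 CPM in the other 6 low horns, against 1.89 to 23.7 CPM in the high horns.
The members called lower included Dhrs9, a retinol dehydrogenase (log2 fold -2.81, SE 0.39, adjusted p = 9.30e-05), whose medians were 91.6 and 10.9 CPM. Crabp2, which carries retinoic acid to its receptor, was lower by a log2 fold of -1.95 (SE 0.48). Tgm2, a transglutaminase induced by retinoic acid in many cells, was lower by -2.33 (SE 0.47), and Lrat, which esterifies retinol for storage, by -2.26 (SE 0.67). For Lrat the call rested on SHAM 3 and HG+ORG 21: its log2 fold was 0.10 without both and not called. The other members called lower were Rdh11 (-0.93), Adh1 (-1.90), the receptor gene Rara (-0.49) and Rarres2 (-1.90). Adh1, at an edgeR adjusted p of 0.0398, lost its call at a dividing level of 25 or 100 CPM and in most fits with 1 horn left out. Adh1, Crabp2 and Lrat were not called in limma. With the smooth muscle level as a covariate, 4 members of the list were called lower. Over the wider aldehyde dehydrogenase family, 2 of 16 tested genes were called higher, Aldh1a3 and Aldh5a1 (12.5%, against 9.27% of all features). None was called lower by edgeR at an adjusted p under 0.05.

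The genes whose levels ran most like Aldh1a1 were ranked by Pearson r of log2 CPM over 23 horns after the mean of each treatment group was removed, as a description with no p. The horns fall in separate sets, so an r of this kind mainly records that division. The highest values were 0.956 for Nebl, 0.953 for Ctnnd2, 0.953 for Ldhb, 0.949 for Dynll2, 0.942 for Wdr31 and 0.942 for Dlgap1. Ldhb, the heart-type lactate dehydrogenase subunit, had 22.3, 46.3 and 75.2 CPM in the low horns and 172, 319 and 703 CPM in the high horns. It had the smallest adjusted p of all features (5.13e-07) with a log2 fold of 2.62 (SE 0.20). Nebl, which encodes the actin-binding protein nebulette, had medians of 1.94 and 17.4 CPM and a log2 fold of 3.01 (SE 0.27).
The most opposite patterns were those of Ttc39b (r = -0.948), Gadd45a (-0.946), Sbno2 (-0.925), Mef2d (-0.915), Sft2d1 (-0.904) and Cflar (-0.903). Gadd45a, a stress-induced gene of growth arrest and DNA repair, had 107, 161 and 212 CPM in the low horns and 31.9, 48.4 and 71.3 CPM in the high horns. The sets did not overlap, and the log2 fold was -1.91 (SE 0.19, adjusted p = 3.45e-06). Ttc39b did not overlap either, at 35.3 to 65.5 CPM in the low and 10.6 to 25.2 CPM in the high horns (log2 fold -1.60).

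Other genes with large positive folds had varied roles. Gstm7, a glutathione transferase whose reads may be shared with its close relatives, had medians of 10.8 and 454 CPM, no overlap and a log2 fold of 4.72 (SE 0.54). The serine protease inhibitor gene Spink8 had medians of 0.999 and 35.9 CPM (log2 fold 4.26). Channel genes Trpm1 (4.76) and Kcna2 (4.25), the transcription factor gene Foxi3 (4.40), the neurotensin receptor gene Ntsr2 (4.24), Ccdc33 (4.22) and Plppr1 (4.10) completed the 12 largest, and each had a high-set median under 12 CPM. By smallest p, Cntnap2 (2.87) and the fatty acid transport gene Slc27a3 (2.62) joined Ldhb, Notum and Nebl. Plat, tissue plasminogen activator, was the 1 matrix protease gene called higher of 15 tested in its list: 37.0, 72.2 and 374 CPM in the low horns and 979, 1494 and 2747 CPM in the high horns, with a log2 fold of 3.08 (SE 0.44, adjusted p = 9.76e-05) and no overlap.

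Lif led the implantation genes in the opposite direction. Leukemia inhibitory factor, which in mice is induced in uterine glands and is needed for implantation, was 7.98 CPM in HG+ORG 18, 16.0 in PBS 10 and 89.6 to 207 CPM in the other 6 low horns, against 4.59 to 34.7 CPM in the high horns. Those 6 low horns lay above every high horn, while the other 2 lay inside the range of the high set. The log2 fold was -3.07 (SE 0.45, adjusted p = 0.000130). In all, 4 of 14 tested implantation and receptivity members were called lower (28.6%) and 1 higher (7.14%), against 13.1% and 9.27% of all features. The list's median log2 fold was -0.42. Slc2a1, the glucose transporter GLUT1, was lower by -1.68 (SE 0.30), with medians of 109 and 63.2 CPM, and reached 362 CPM in SHAM 3 and 374 CPM in HG+ORG 21. Stat3, through which LIF signals, was lower by -0.62, and the integrin gene Itgb3 by -2.61. Itgb3, at an edgeR adjusted p of 0.0437, lost its call at a dividing level of 25 or 100 CPM and in most fits with 1 horn left out. Its log2 fold within the SHAM group was 1.10. Ptgs1, which encodes cyclooxygenase-1, was higher by 1.65.

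The genes with the largest negative folds also had varied roles. Otop1, a proton channel, had 15.3 and 0.136 CPM as medians (log2 fold -6.08, SE 0.90), yet was 0 CPM in HG 14 and 0.087 in HG+ORG 18. The hair and nail keratin gene Krt84 had medians of 13.9 and 0.326 CPM (-5.02), Krt6b 4.23 and 0.176 CPM (-3.76), and the peptidylarginine deiminase gene Padi3 21.5 and 1.36 CPM (-4.03). The serine protease gene Tmprss11b (-3.73), Rasa4 (-3.70), the collagen-modifying enzyme gene P4ha3 (-5.06), Col24a1 (-4.36), Gpr83 (-4.75), Tm4sf4 (-3.82) and the pseudogene Fut4-ps1 (-4.49) were among the 12 most negative. Ighg2b, an immunoglobulin constant region with close copies, was the remaining one (-4.81). Krt84 was 35.8 to 53.8 CPM in SHAM 4, HG 13 and HG 16 and 0 CPM in HG 14, so the low horns themselves were spread over the range. By smallest p the lower genes were Klhl5, Gadd45a, Ttc39b, Tram1 and Plpp5, whose log2 folds lay between -1.91 and -0.85. In the squamous list, 2 of 9 tested members were called in each direction (22.2%), against 9.27% higher and 13.1% lower over all features. Sprr1a (-3.50) and Calml3 (-2.38) were lower, Krt4 (2.97) and Lor (1.29) higher.

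Of 30 tested estrogen-induced uterine genes, 2 were called higher (6.67%) and 5 lower (16.7%), shares near those over all features (9.27% and 13.1%). Wnt7a and Pgr were the higher members, and the progesterone receptor gene Pgr had medians of 138 and 412 CPM (log2 fold 1.96, SE 0.53, adjusted p = 0.0122). Its value in HG+ORG 18 was 4.08 CPM. Padi1 (-2.95) and Padi2 (-2.70), estrogen-induced deiminases that are close relatives, were lower, as were the chemokine gene Ccl11 (-3.24), the growth factor gene Igf1 (-2.10) and Sprr2e (-2.30), which has close copies. In SHAM horns alone Ccl11 was at 0.15 and Igf1 at 0.79, and without SHAM 3 and HG+ORG 21 Sprr2e was at 0.041, none of them called by edgeR. The estrogen receptor gene Esr1 was not called (log2 fold -0.04, SE 0.31, adjusted p = 0.945): it was 237 to 480 CPM in 7 low horns, 9.80 CPM in HG+ORG 18, and 271 to 434 CPM in the high horns. Lactoferrin (Ltf, log2 fold 0.83), complement C3 (-0.37), Muc1 (-0.35), Lcn2 (-0.37), the proliferation marker Mki67 (0.08), the gland factor gene Foxa2 (0.14), Hoxa10 (0.00) and the macrophage marker Adgre1 (-0.78) were not called, with adjusted p-values of 0.401 to 0.999. Each of these 9 genes changed sign in at least 1 other setting, and Ltf was called higher without SHAM 3 and HG+ORG 21 (2.66, adjusted p = 0.0332).
Of 19 tested progesterone-induced genes, 1 was called higher (5.26%, against 9.27% of all features), Sox17 (log2 fold 1.206, SE 0.39), and none lower by edgeR. Ihh, the epithelial hedgehog ligand induced by progesterone, was not called (log2 fold 4.11, SE 1.48, adjusted p = 0.0507). It was 288 CPM in HG 14 and 0.126 to 6.56 CPM in the other 7 low horns, against 9.20 to 353 CPM in the high horns. In the hedgehog list, Smo (0.86) and Sufu (0.47) were called higher of 9 tested (22.2%, against 9.27% of all features). That list's median was 0.10, with 5 folds above 0 and 4 below. Neither gene was called in injured horns alone. Sufu, at an edgeR adjusted p of 0.0425, also lost its call at a dividing level of 25 or 100 CPM and in many fits with 1 horn left out. The gland list had 3 of 12 tested members called higher (Axin2, Aldh1a3 and Lgr5) and Sox9 lower (-1.17). The epithelium list had 3 of 21 higher (14.3%, against 9.27% of all features, median over the list -0.08). They were the homeobox genes Msx1 (1.95) and Msx2 (1.26) and Wnt7a. The epithelial factor gene Elf3 (-1.56) was lower.

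Many stroma and matrix genes were called lower in the high horns in the fit over all groups, but none of these 2 lists within the SHAM group by edgeR. When the horns were divided at 25 CPM, 0 members of the collagen, stroma and smooth muscle lists were called lower by edgeR, with medians of -2.43, -1.41 and -0.83. In bulk tissue, fewer cells of a type and less RNA per cell cannot be told apart. Of 20 tested fibrillar collagen and matrix genes, 13 were called lower (65.0%, against 13.1% of all features) and none higher by edgeR. Their median log2 fold was -2.57. Col3a1, a main collagen of loose stroma, had 63.3, 1276 and 2924 CPM in the low horns and 2.15, 69.8 and 921 CPM in the high horns, with a log2 fold of -3.12 (SE 0.90, adjusted p = 0.0177). The sets overlapped, with 3 low horns inside the range of the high ones. Fitted for SHAM horns alone, Col3a1 (0.19), Col1a1 (0.18), Col5a1 (0.35) and Fbn1 (0.20) had folds above 0. The collagen list's median was 0.18 there, and 2 members were called higher (against 1226 of 16875 features) and none lower. Over the injured horns alone, 12 were called lower (against 675 of 18201 features), with a median of -3.31. With PBS 10 left out, 4 were called lower, and without HG+ORG 18, 7. The stroma list behaved alike, with 9 of 20 members called lower (45.0%) and none higher (median -1.58). None was called in SHAM horns alone (median 0.51), and none was called lower when PBS 10 was left out.
The smooth muscle list had 5 of 16 tested members called lower (31.2%) and all 16 folds below 0 (median -1.62). In SHAM horns alone 2 of 15 were called lower (against 1088 of 16875 features) and none higher (median -0.18), with Actg2 at -2.10 (adjusted p = 0.0204). The count over all groups was 1 without PBS 10 and 3 without HG 15, HG 16 or HG+ORG 18, 19, 22 or 23. The list's mean log2 CPM was 2.26 to 7.26 in the low horns and -0.10 to 6.32 in the high horns, and these ranges overlapped. The contractile genes Tagln (-2.57), Actg2 (-3.07), Tpm2 (-2.25) and Cald1 (-1.97) were called and Acta2 (-1.97, adjusted p = 0.0704) was not. With this list's level as a covariate, 1163 features were called higher and 1145 lower, and none of the collagen or stroma members was called lower by edgeR. With the stroma list's level as the covariate, added after seeing the data, 7 collagen and 3 stroma members were still called lower. Under the smooth muscle covariate 86 of 125 called genes named here were still called in the same direction, the Wnt members Notum, Axin2, Wnt7a, Lgr5, Tcf7 and Fzd1 among them. Beyond these fits, the part of muscle and stroma content in the lower calls was not tested.
Endothelium had 1 of 14 tested members called lower (7.14%), Flt1 (-2.43), and mesothelium 1 of 7 (14.3%), Upk3b (-1.58), against 13.1% of all features. DESeq2 called 5 and 4 of them lower. In SHAM horns alone the endothelium median was 1.53, against -1.72 over all groups. Adipocyte markers had no call of 9 tested (8 folds above 0, median 2.72), with a mean log2 CPM of up to 6.12 in low horns and up to 9.47 in high horn HG 12. The median horn went the other way, at a mean log2 CPM of 1.78 in the low and 0.23 in the high set. Of 14 macrophage and monocyte members, Itgam was called lower (-2.49) and none higher by edgeR over all groups (median -0.84). In SHAM horns alone 8 of the 14 were called higher and none lower (median 2.26). Also called higher there were 4 of 7 MHC class II genes (median 2.44), of which none was called over all groups. The fit of SHAM horns alone called 1226 of 16875 features higher and 1088 lower. The proteinase inhibitor gene Timp1 (-2.56) was 484 CPM in HG+ORG 18 and 9.45 to 25.2 CPM in the other low horns. None of the 25 cell cycle genes was called in the edgeR fit of the sets over all groups (median 0.25). With the log2 Aldh1a1 level in place of the sets, edgeR called 4 higher (median 0.69). For the sets, limma called 5 higher (median 1.01) and DESeq2 2, and none of these 3 fits called a member lower.

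**Figure D3:**
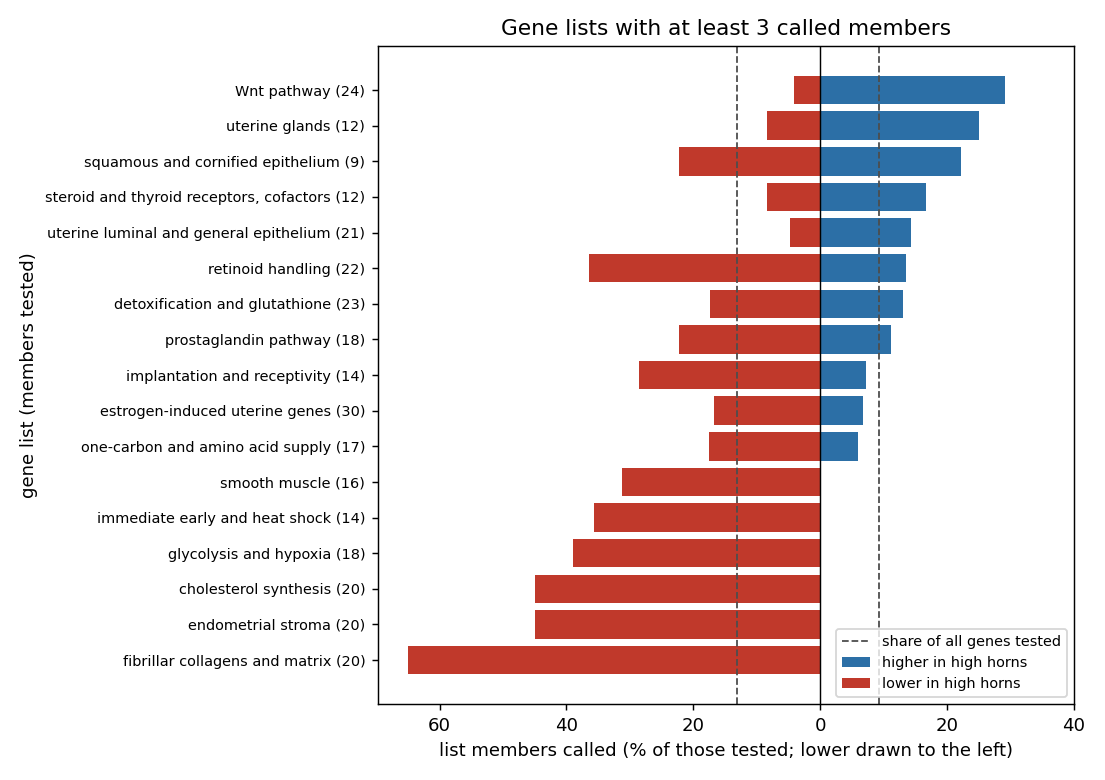
Share of tested members called by edgeR in each gene list with at least 3 called members, in percent, drawn to the right in blue where higher in the high horns and to the left in red where lower. Numbers in parentheses are members tested and dashed lines mark the shares over all features, 9.27% higher and 13.1% lower; the Wnt list has 29.2% higher and the collagen list 65.0% lower.

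The calls in 3 metabolic and stress lists were all in the lower direction, though most members of each were not called. Cholesterol synthesis had 9 of 20 tested members called lower (45.0%, against 13.1% of all features) and none higher, with a median log2 fold of -0.93. Msmo1, a sterol oxidase, had medians of 114 and 38.2 CPM (log2 fold -1.71, SE 0.30, adjusted p = 0.000590), and the low horns reached 334 CPM in SHAM 4. The pathway enzyme genes Mvd (-1.54) and Fdps (-1.39) were also lower. Without SHAM 4, 4 members were called, and none was called by edgeR when the horns were divided at 25 CPM (median -0.49). Glycolysis and hypoxia had 7 of 18 members lower (38.9%), among them Slc2a1, Adm (-2.77), which encodes the vessel-dilating peptide adrenomedullin, and the phosphofructokinase gene Pfkp (-1.13). That count was 2 without SHAM 3 and 3 or 4 without SHAM 1, 2, 5 or 6, HG 15, or HG+ORG 18, 20, 21, 22 or 23. Immediate early and heat shock genes had 5 of 14 lower (35.7%), among them Ier3 (-2.92, SE 0.43), Fos (-1.77), Hspa1b (-1.21) and Hspa1a (-1.71), the last pair being near-identical copies. Without SHAM 3, 3 were called, and without HG 12, 8.
In the amino acid supply list 3 of 17 tested members were called lower (17.6%) and 1 higher (5.88%), against 13.1% and 9.27% of all features. The transcription factor gene Atf4 (-0.82) and its target Trib3 (-1.59) were among the lower ones, and the cystine transporter gene Slc7a11 (1.25) was higher. Of 9 arginase and polyamine genes, Sat1 (-1.63) and Arg1 (-3.47) were called lower (22.2%, against 13.1% of all features). Neither was called without SHAM 3 and HG+ORG 21, and Arg1, at an adjusted p of 0.0473, was not called in DESeq2 or limma. Of 18 prostaglandin pathway genes, 2 were higher (11.1%) and 4 lower (22.2%), against 9.27% and 13.1% of all features: the prostaglandin transporter gene Slco2a1 had medians of 21.9 and 99.3 CPM without overlap (log2 fold 2.23, SE 0.32, adjusted p = 0.000121), while the receptor gene Ptger4 (-1.32), the prostacyclin synthase gene Ptgis (-1.93) and the degrading enzyme gene Hpgd (-1.30) were lower. Of 23 detoxification and glutathione genes, 3 were called higher (13.0%) and 4 lower (17.4%), shares near those over all features. The higher ones included Gstm5 (1.87) and Gclc (1.32), the latter for a subunit of the rate-limiting enzyme of glutathione synthesis. Ugt1a6a (-1.46) and Cbr3 (-0.90) were among the lower ones. Further calls were made for the plasma cell and stress factor gene Xbp1 (-1.51), the interferon-induced gene Ifit2 (1.02), the sodium channel subunit gene Scnn1a (2.01), Aqp3 (-1.76), Muc16 (-2.03), and the cilia genes Hydin (2.05) and Foxj1 (-1.20). Each was the only member of its list called in its direction. Against 9.27% of all features higher, these were 1 of 19 interferon (5.26%), 15 epithelial channel (6.67%) and 7 cilia genes (14.3%). Against 13.1% lower, they were 1 of 9 B and plasma cell (11.1%), 15 channel (6.67%), 13 secretory (7.69%) and 7 cilia genes (14.3%).

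The low horns were unlike each other in many genes. SHAM 3 and HG+ORG 21 had the lowest Mki67 of all horns, at 1.05 and 3.08 CPM, with 13400.1 and 13687.6 CPM of Ltf, 24345.8 and 18147.2 CPM of C3 and 3429 and 2878 CPM of Arg1. SHAM 4, HG 13 and HG 16 had 503, 401 and 422 CPM of Mki67, 1662 to 1896 CPM of Ltf and 99.2 to 108 CPM of Lif. HG 14 had 28.8 CPM of Ltf, 56.3 of C3 and 0.959 of Arg1, with the highest Ihh and Cyp26a1 of the low horns. In HG+ORG 18, Wnt7a was 8.59 CPM, Pgr 4.08 and Col1a1 2603, and PBS 10 had intermediate values, with 203 CPM of Mki67 and 16.0 of Lif. The high horns spanned 40.7 to 578 CPM of Mki67 and 719 to 14940.3 CPM of Ltf, so only SHAM 3 and HG+ORG 21 lay below them for Mki67. Notum stayed between 0.598 and 4.39 CPM in all 8 of these low horns. Lyz2 and Sprr2f, a further estrogen-induced gene, were chosen for mention after their values were seen: Sprr2f was 8344 CPM in SHAM 3 and 10855.3 in HG+ORG 21, against 22.2 to 1945 CPM in the other low horns and 320.1 to 1336 CPM in the high horns.

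**Figure D4:**
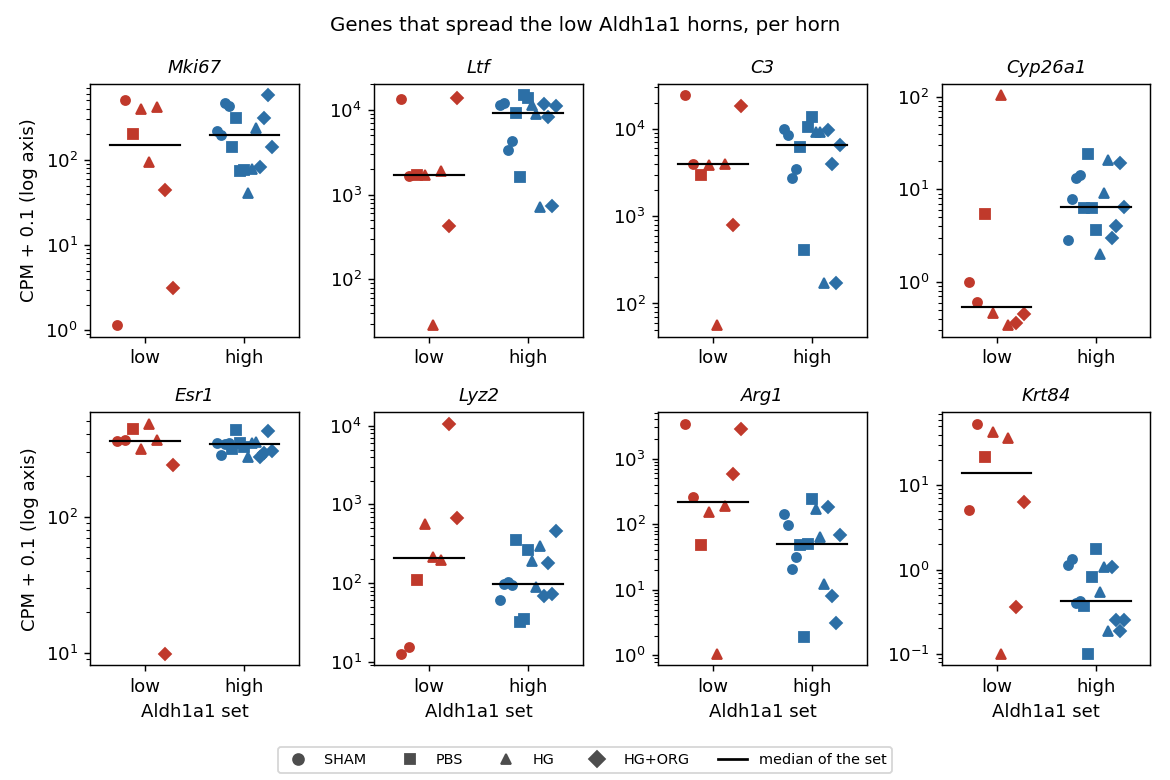
Levels of 8 genes that spread the low horns, in each horn, as CPM plus 0.1 on a log axis, with the low set at the left and the high set at the right. Colours mark the sets, symbols the treatment groups and black lines the medians; for Mki67 the low horns run from 1.05 to 503 CPM and the high horns from 40.7 to 578.

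Within treatment groups the difference between the sets kept its direction for most called genes. Of the 1674 features called higher, 1580 (94.4%) had folds above 0 in all 4 groups when the difference was fitted within each, and of the 2363 called lower, 1748 (74.0%) had folds below 0 in all 4. These folds come from the horns that gave the calls and are no independent check. Notum was higher by 5.33 in SHAM, 3.48 in PBS, 3.94 in HG and 4.60 in HG+ORG. Gadd45a had -2.33, -1.46, -1.31 and -2.25 in the same order. Stra6 had 8.49, 3.48, 2.19 and 6.34. Col1a1 had 0.19 in SHAM, against -4.59, -1.63 and -5.41 in PBS, HG and HG+ORG.
A test of whether the difference itself varied by treatment group called 1 of 18680 features in edgeR, Dlgap1 (adjusted p = 0.0194), with 3237 at an unadjusted p under 0.05. Dlgap1, which encodes a scaffold protein of synapses, had log2 folds of 5.59 in SHAM, 1.63 in PBS, 2.67 in HG and 4.23 in HG+ORG, all above 0. The low PBS set is a single horn, PBS 10, at 17.1 CPM of Dlgap1, against a low-set median of 3.94 CPM. The same test in limma called 0, with 2223 at an unadjusted p under 0.05. Leaving out SHAM 3, SHAM 4 or HG+ORG 21 raised edgeR's count to 14, 170 or 2719, the last with HG+ORG 18 as the only low horn of its group.
Fitted on SHAM horns alone, edgeR called 1226 features higher and 1088 lower, of which 658 and 788 were among the calls over all groups. On HG horns alone it called 0 in either direction, with 1151 at an unadjusted p under 0.05, and on HG+ORG horns alone 0, with 5488.

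**Figure D5:**
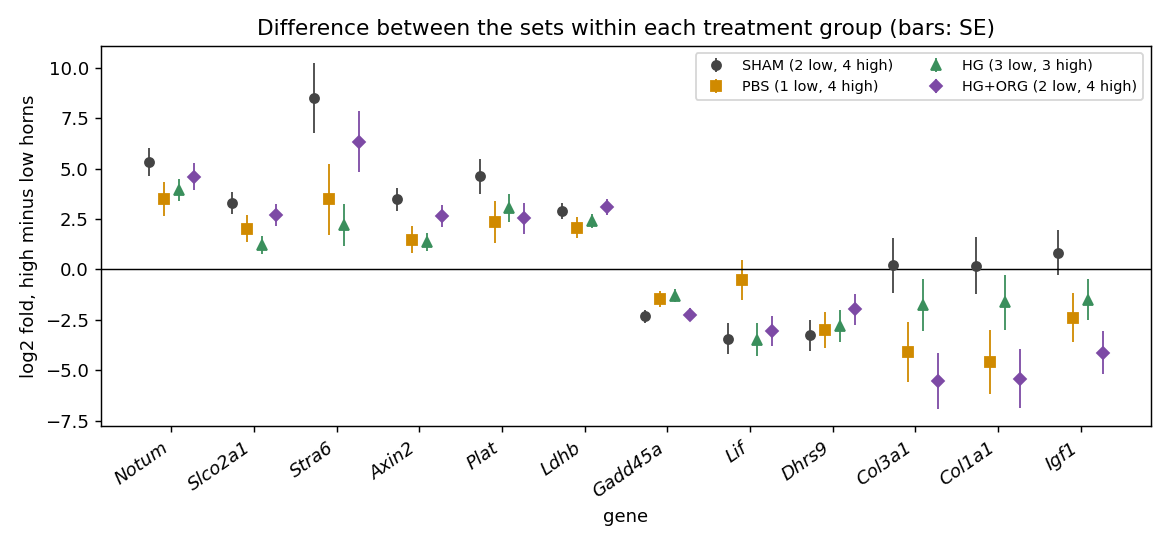
Log2 fold of the high against the low horns, fitted within each treatment group, for 12 genes. Points are estimates and bars their SE, symbols and colours mark the groups, and the line at 0 is no difference; Notum runs from 3.48 to 5.33, whereas Col1a1 is 0.19 in SHAM and -5.41 in HG+ORG.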

How the data were processed

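Endometrial RNA of 23 horns was measured by poly(A) RNA sequencing, per the labels' protocols. The deposited table holds raw read counts per gene, whole numbers made by the authors. The submitters' processing notes list HISAT2 2.2.1 and featureCounts 2.0.3 among the tools, Trimmomatic 0.39 and SAMtools 1.21 besides, DESeq2 1.42.1 in R 4.3.1, FastQC 0.11.9 and MultiQC 1.27.1 for quality reports, and build GRCm39. The sources used here give neither annotation release nor strand setting, so antisense genes and close copies may share reads, and human organoid reads were not told apart from mouse ones. Each of the 18682 features has at least 10 counts in at least 3 libraries. Totals of 7920918 to 14902952 counts set the precision, and total-scaled CPM was computed from the counts.

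edgeR 4.0.16 (R 4.3.3; TMM factors, filterByExpr, quasi-likelihood test) was fitted to the counts of all 23 horns with treatment group and Aldh1a1 set as terms. It kept 18063 features, and Aldh1a1 and Aldh1a7 were left out of the calls. P-values were adjusted by the Benjamini-Hochberg method over all 18061 tested features, at 0.05. SE was taken as the size of the log2 fold divided by the root of the F statistic. A second fit had the set nested in treatment group. Log2 CPM is scaled by TMM factors and uses a prior count of 2. Counts of features without overlap were taken on log2 CPM, and overlap stated for single genes on plain CPM. Named genes were the 12 highest and 12 lowest folds among calls that averaged 1 CPM or more and have an established symbol, the 5 smallest p in each direction, the 6 most and 6 least alike to Aldh1a1, up to 4 members per list, and fixed uterine genes. The 38 lists hold 578 genes, of which 534 are in the table. The division, the members and the lists were chosen with earlier results of these data known. Alternatives used DESeq2 1.42.0 and limma 3.58.1 (voom), other dividing levels, filters, scalings, covariates, single treatment groups, and each horn left out in turn. Areg and other list genes outside the table were not analysed here, and the results of some list members are not reported here.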

Additional observations from a re-analysis of the deposited data

Results flagged for a closer look

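Of 139 genes checked at both their highest and lowest low horn, 17 had a low horn far from the other 7. Its gap to the nearest, as a share of the range, was above the 95% limit of Dixon's test for 8 values (0.526). Chance flags about 1 in 20 groups. The values that follow are log2 CPM with a prior count of 2. HG 14 was the lowest low horn for Dhrs9 (1.62), Crabp2 (-0.96), Itgam (2.19) and Hspa1b (5.17). It was the highest for Ihh (8.01), Cxcl15 (7.36), a chemokine of uterine glands, and Sufu (5.61). HG+ORG 18 was the lowest for Wnt7a (3.63), Fzd6 (3.15), Lor (-1.83), Ptger4 (4.59) and Esr1 (3.82), and the highest for Timp1 (9.43). Cntnap2 was highest in PBS 10 (4.05), Krt4 highest in HG 13 (0.09), Dynll2 lowest in HG+ORG 21 (6.58) and Ifit2 lowest in SHAM 4 (1.90). The difference between the sets varied by treatment group for Dlgap1, in edgeR's interaction test (adjusted p = 0.019384).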

How the results depend on the processing

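Against 1674 features called higher and 2363 lower, dividing the horns at 25 CPM gave 920 and 1099, and at 100 CPM (HG+ORG 19 among the low horns) 1189 and 1492. Injured horns alone gave 605 and 675, SHAM horns alone 1226 and 1088, and HG or HG+ORG horns alone 0 and 0 by edgeR (1151 and 5488 at an unadjusted p under 0.05). With the smooth muscle level as a covariate 1163 and 1145 were called, and with the stroma level, added after seeing the data, 1389 and 1559. Without both HG+ORG 18 and HG 14, also added later, 2736 and 2535 were called. Leaving out 1 horn at a time gave 1398 to 2615 higher, the most without HG 14, and 1709 to 2663 lower. The interaction count of 1 was 0 in limma and 0 to 2719 with 1 horn left out. DESeq2's Wald test called 2240 and 2996. Of 125 called genes named here, 120 were called in DESeq2, 114 in limma and 72 at 25 CPM, in the same direction. Those not called in DESeq2 were Stra6, Ighg2b, Lgr5, Col1a1 and Arg1. The causes of these changes were not tested, beyond the fewer horns in some settings.

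Log2 folds changed sign as follows. In SHAM horns alone they were 0.15 for Ccl11, 0.79 for Igf1, 1.09 for Itgb3, 0.19 for Col3a1, 0.18 for Col1a1, 0.35 for Col5a1, 0.20 for Fbn1, 0.31 for Aldh1a2, -0.35 for Ltf and 2.17 for Adgre1. In HG horns alone they were -1.65 for Cyp26a1, 1.269 for C3, -1.40 for Mki67, 0.23 for Muc1, 0.94 for Lcn2, -0.16 for Foxa2 and -0.97 for Hoxa10, and in HG+ORG horns alone 0.98 for Esr1 and -0.17 for Ltf. In injured horns alone they were 0.16 for Esr1, 0.26 for C3, 0.015 for Muc1, -0.047 for Foxa2 and -0.61 for Hoxa10. Without SHAM 3 and HG+ORG 21 they were 0.10 for Lrat, 0.15 for Esr1, 1.26 for C3, -0.62 for Mki67, 0.31 for Muc1, 0.96 for Lcn2, -0.54 for Hoxa10 and 0.041 for Sprr2e. With no group term they were -0.55 for Cyp26a1, -0.001 for Mki67, -0.058 for Foxa2 and -1.26 for Hoxa10. In limma they were 0.39 for Esr1 and -0.83 for Hoxa10. Other settings gave Esr1 0.062 with the adipocyte level as a covariate, Foxa2 -0.03 at 25 CPM, Foxa2 -0.056 and Adgre1 0.32 with smooth muscle, Adgre1 0.63 with stroma, Hoxa10 -0.048 with SHAM 5 and SHAM 6 summed, and Mki67 -0.28 without HG+ORG 18 and HG 14. With 1 horn left out, ranges were -0.245 to 0.089 for Esr1, -0.60 to 0.39 for C3, -0.29 to 0.57 for Mki67, -0.50 to 0.007 for Muc1, -0.68 to 0.39 for Lcn2, -0.40 to 0.86 for Hoxa10 and -1.07 to 0.001 for Adgre1. Of these genes, only Ccl11, Igf1, Itgb3, Col3a1, Col1a1, Col5a1, Fbn1, Lrat and Sprr2e were called over all horns.

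No paired analysis was possible because the replicate numbers run from 1 to 23 and no number is shared between groups.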
